A study of Homo sapiens with 4 samples.

Results

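The genes described here are the chains of the integrins and the tetraspanins, measured by RNA sequencing in LX-2 cells. They were chosen by gene symbol from the count table, as every protein-coding gene named as an integrin α or β chain or as a numbered TSPAN, with *CD9*, *CD37*, *CD53*, *CD63*, *CD81*, *CD82* and *CD151*. This gave 55 genes out of 19488 protein-coding genes and 63677 genes in all. Of the 55, 26 encode integrin chains (18 α and 8 β) and 29 encode tetraspanins.

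LX-2 is a cell line made from human hepatic stellate cells, the liver cells that deposit scar matrix once activated. The miR-6133-5p group was transfected with a mimic of that microRNA at 20 nM and the miControl group with a negative control mimic at the same concentration. Both groups received 5 ng/mL of rhTGF-β1 24 h after transfection and were collected 24 h later, so that no library came from cells without TGF-β. Each group had 2 libraries, called replicates 1 and 2, with gene counts that summed to 51862006 and 57903388 for miControl and to 61747010 and 93811213 for miR-6133-5p. The labels do not say whether the 2 libraries of a group came from separate cultures, so the p-values measure the spread between these libraries, which may be technical.

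Integrins are receptors made of one α and one β chain that span the membrane and tie the matrix outside the cell to actin inside it. The α chain largely sets the ligand, and chains that recognise the RGD motif of fibronectin or vitronectin, collagen, laminin, or proteins on leukocytes and vessels are grouped accordingly. In activated stellate cells, integrins of the αV family also release active TGF-β from its latent form. Tetraspanins are small proteins that cross the membrane repeatedly and gather integrins, proteases and other partners into membrane patches, and CD151 is the one most closely tied to laminin-binding integrins.

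The microRNA gene, *MIR6133*, gives the transcript whose product the mimic copies. Its RefSeq hairpin of 108 bases lies on the plus strand of GRCh38.p14 at chr7:133290881-133290988 and is shown because it is the source of the agent that separates the groups.
MIR6133 hairpin: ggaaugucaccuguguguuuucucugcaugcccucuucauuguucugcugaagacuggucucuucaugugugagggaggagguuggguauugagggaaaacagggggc

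The label of a stellate cell line was compared with a list of 12 stellate and mesenchymal markers, 10 of which had enough counts to be tested. *SPARC*, a matrix glycoprotein gene and the highest of them by CPM, stood at 3677 and 3602 CPM (counts relative to library totals scaled by TMM) in the miControl libraries and at 2879 and 2623 CPM in the miR-6133-5p libraries. *LRAT*, which marks quiescent stellate cells in tissue, and *DES* had at most 7 counts in a library. The summed level of the list was 9869 and 9353 CPM with miControl and 6701 and 6047 CPM with miR-6133-5p. Of its 10 tested genes, 8 had a log2 fold change below 0 (8702 of all 18252 genes tested), with a median of -0.71, and *ACTA2*, *COL1A1*, *COL1A2* and *LOX* were called lower (5.54% of all genes tested), at -1.95 to -1.11. *PDGFRA* (-0.97), *COL3A1* (-0.44), *SPARC* (-0.40), *VIM* (-0.02), *PDGFRB* (0.04) and *TIMP1* (0.42) were not called. The part of this difference in the results on integrins was not tested. The leukocyte list of 7 genes summed to 49.5, 49.1, 23.7 and 23.2 CPM in the same order, of which *LCP1* made up 47.8, 47.9, 21.7 and 20.9 CPM. *LCP1* was called lower, with a log2 fold change of -1.17, a call that glmTreat did not make. *CD14*, the other leukocyte marker tested, was 1.46, 0.955, 1.85 and 1.97 CPM. Its log2 fold change of 0.66 did not pass the test, and *CD3E* had no count. The platelet markers *PF4* and *GP9* and the hepatocyte marker *TTR* also had no count. The lists for endothelial, epithelial, hepatocyte and platelet cells summed to at most 2.99, 7.32, 2.81 and 1.71 CPM in a library, mostly from *KDR*, *KRT7*, *SERPINA1* and *GP1BA*. The epithelial list was at 3.70 and 4.59 CPM with miControl and at 6.82 and 7.32 CPM with miR-6133-5p, and its *KRT7* had a log2 fold change of 0.76 (adjusted p = 0.00317, edgeR quasi-likelihood test), short of the fold threshold. In bulk libraries, fewer cells of a type and less RNA per cell cannot be told apart.

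The groups were compared by the 2-sided quasi-likelihood test of edgeR, with Benjamini-Hochberg adjustment over the 18252 genes that passed its filter on low counts. To be called lower or higher with the mimic, a gene needed an adjusted p-value under 0.01 together with more than 0.8 in log2 fold change, in either direction. The filter kept 43 of the 55 members. Of these, 6 were called lower, namely *ITGA5*, *ITGAV*, *ITGB3*, *CD151*, *TSPAN14* and *TSPAN2*, against 5.54% of all genes tested. A further 2 were called higher, *ITGA7* and *CD82*, against 2.9% of all genes tested. The tested members had a median log2 fold change of -0.17, whereas that of all tested genes was 0.03. By family, the 21 tested integrin chains had 3 called lower and 1 called higher with a median of -0.21, and the 22 tested tetraspanins had 3 called lower and 1 called higher with a median of -0.04. With libraries scaled by their totals alone, the median of all tested genes moved to 0.19, and 709 genes were called lower and 977 higher in place of 1011 and 529, so each log2 fold change given here is relative to the TMM scaling.

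Without the threshold on the fold change, 14 members had an adjusted p-value below 0.01 on the lower side, where 10.9% of all genes tested did, and 5 on the higher side, where 7.96% did (edgeR quasi-likelihood test). The libraries of the groups did not overlap for 19 members on the lower side, against 31.3% of all genes tested, and for 12 on the higher side, against 33.2%. The 12 members that did not pass the filter were *ITGA8*, *ITGA9*, *ITGAD*, *ITGAL*, *ITGAX*, *CD53*, *TSPAN1*, *TSPAN7*, *TSPAN8*, *TSPAN16*, *TSPAN19* and *TSPAN32*. None of them reached more than 26 counts in a library, and *ITGAL*, *TSPAN7* and *TSPAN8* had no count in any. Without the filter, the 9 of them with any count were fitted and 0 were called, among them *ITGA9* at 1 and 7 counts with miControl and 10 and 26 with miR-6133-5p.

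**Figure D1:**
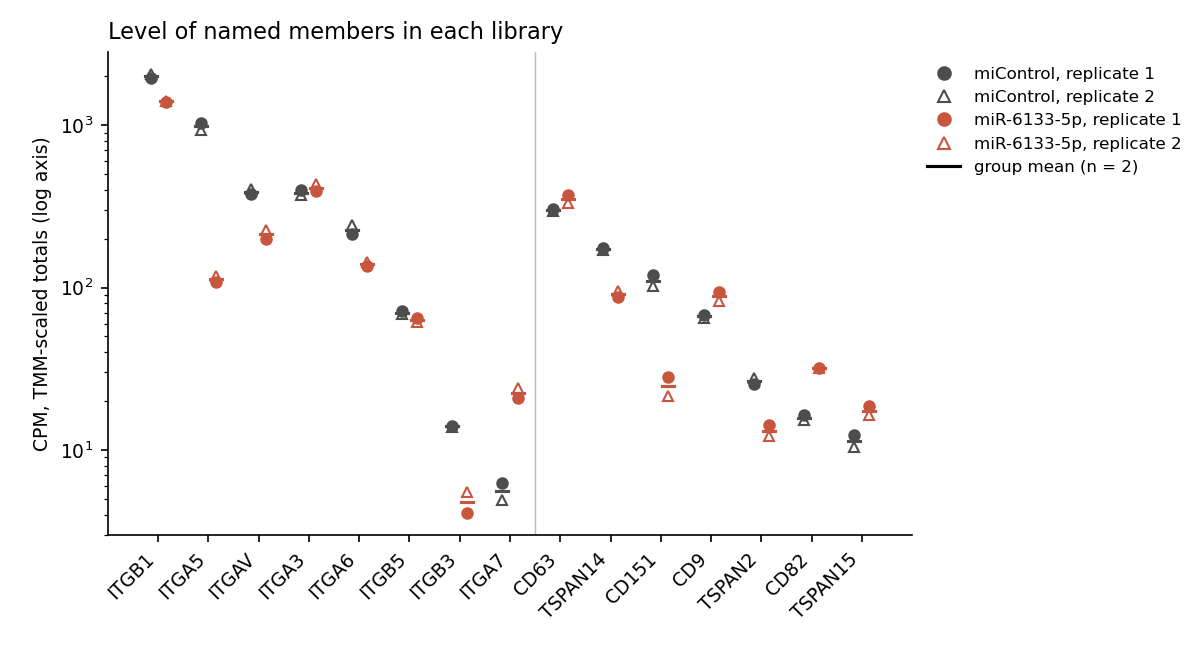
Level of 15 named members in each library, in CPM on a log axis, with integrin chains left of the grey line and tetraspanins right of it. Filled circles are replicate 1, open triangles replicate 2 and short lines group means of 2 libraries. *ITGA5* dropped from between 939 and 1034 CPM to between 107 and 118 CPM, and *CD151* and *ITGB3* also lie lower with miR-6133-5p, while *ITGA7* and *CD82* lie higher.

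The RGD-binding α chains held the largest difference of any member. *ITGA5* (ENSG00000161638, GRCh37 chr12:54789045-54813050), which encodes the α5 chain of the fibronectin receptor α5β1, stood at 1034 and 939 CPM in the miControl libraries and at 107 and 118 CPM in the miR-6133-5p libraries. Both miR-6133-5p libraries lay far below both miControl libraries, and the group means were 987 ± 67.6 and 113 ± 7.58 CPM (SD, n = 2). The log2 fold change was -3.13 (95% interval -3.38 to -2.88, adjusted p = 5.56e-09, edgeR quasi-likelihood test), a level that fell by 88.6%. *ITGAV*, which encodes the αV chain shared by several RGD receptors, was 376 and 402 CPM with miControl and 198 and 226 CPM with miR-6133-5p. Its groups did not overlap either, and its log2 fold change was -0.87 (95% interval -1.11 to -0.64, adjusted p = 5.51e-05, edgeR quasi-likelihood test). This call sat close to the threshold, since *ITGAV* had a log2 fold change of -0.71 with library totals alone and of -0.80, just inside 0.8, without replicate 1 of miR-6133-5p, and it was not called by glmTreat, which tests against the threshold itself. *ITGA2B*, the α chain of the platelet fibrinogen receptor, was low at 2.28, 2.40, 2.77 and 3.13 CPM, with a log2 fold change of 0.33 that did not pass the test. *ITGA8*, another RGD-binding chain, had 0, 3, 0 and 0 counts.

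Because *ITGA5* carried the largest difference, the stretch before its start is shown with the letters of 2 motifs in capitals. RefSeq windows of 300 bases, from 250 before to 50 after an annotated start in GRCh38.p14, were found for 38 of the 55 members, some with several starts and 63 windows in all. The AP-1 motif, TGACTCA or TGAGTCA on either strand, was present in 4.95% of 35116 windows, in at least 1 window of 6.05% of 27305 genes, and in 3 members, *ITGA5*, *CD63* and *TSPAN10*. The TEAD motif, GGAATG on either strand, was present in 14.0% of windows, in 16.7% of genes and in 9 members, *CD63*, *ITGA5*, *ITGA10*, *ITGB1*, *TSPAN8*, *TSPAN10*, *TSPAN12*, *TSPAN14* and *TSPAN33*. A match describes the letters alone, and a link between the motifs and the fold changes was not tested. The SRF CArG motif was present in 1.29% of windows and in *ITGB6* alone among the 38. The stretch printed is the 100 bases that end at the start base of *ITGA5*, on the minus strand of GRCh38.p14 at chr12:54419266-54419365, with the TEAD letters first and the AP-1 letters last.
ITGA5 promoter: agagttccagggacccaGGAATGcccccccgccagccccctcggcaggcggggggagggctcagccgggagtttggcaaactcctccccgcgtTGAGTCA

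The laminin-binding α chains went different ways from one another. *ITGA7* (ENSG00000135424, GRCh37 chr12:56078352-56110188), which encodes the α7 chain of muscle and mesenchymal laminin receptors, was 6.29 and 4.90 CPM with miControl and 20.8 and 23.9 CPM with miR-6133-5p. It rose in both miR-6133-5p libraries, with a log2 fold change of 2.00 (95% interval 1.68 to 2.32, adjusted p = 6.07e-07, edgeR quasi-likelihood test). *ITGA3*, the α3 chain of the laminin receptor that pairs with CD151, was 398, 370, 391 and 433 CPM in the order given, so the groups overlapped. Its log2 fold change of 0.10 did not pass the test, and its 95% interval ran from -0.13 to 0.33. *ITGA6*, the α6 chain found with β1 or β4, was 212 and 242 CPM with miControl and 136 and 144 CPM with miR-6133-5p. The log2 fold change of *ITGA6* was -0.70 (adjusted p = 0.000318, edgeR quasi-likelihood test), past the p-value and short of the fold threshold.

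Of the 4 collagen-binding α chains, none was called, against 5.54% of all genes tested called lower and 2.9% higher. Of these chains, 2 lay close to the threshold on the lower side. *ITGA2*, the α2 chain of a collagen receptor, was 104 and 109 CPM with miControl and 61.4 and 69.0 CPM with the mimic, and had a log2 fold change of -0.71 (adjusted p = 0.000223, edgeR quasi-likelihood test). *ITGA1*, the α1 chain, which favours basement membrane collagen, was 27.8 and 34.1 CPM against 17.7 and 19.6 CPM, a log2 fold change of -0.73 (adjusted p = 0.000673, edgeR quasi-likelihood test). Both lay within 0.1 of the fold threshold, and both were past it without replicate 2 of miR-6133-5p, at -0.83 for *ITGA1* and -0.81 for *ITGA2*, and *ITGA1* also at -0.88 without replicate 1 of miControl. *ITGA11*, the α11 chain of fibroblasts, had a log2 fold change of -0.41 and *ITGA10*, the α10 chain of cartilage, one of 0.43, and neither passed the test. *ITGA4*, whose α4 chain binds VCAM1 and a splice form of fibronectin, was 13.2 and 15.2 CPM with miControl and 10.2 and 11.5 CPM with miR-6133-5p, and its adjusted p of 0.0379 (edgeR quasi-likelihood test) missed 0.01. *ITGA4* shares 26.4% of its exon bases with *CERKL*, which runs on the other strand, and the strand setting of the counting is not given in the sources used here. *ITGA1* shares 5.77% of its exon bases with *PELO* and *RPL17P21* on the same strand. *PELO* had 2603, 3002, 3595 and 5670 counts, and *ITGA1* had 1369, 1859, 1156 and 1944. The part of this overlap in the level of *ITGA1* was not tested.

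The 5 leukocyte α chains were near the floor except for *ITGAE*. *ITGAE*, the αE chain of lymphocytes in epithelia, was 26.0, 24.8, 24.9 and 20.3 CPM, and its log2 fold change of -0.17 did not pass the test. *ITGAM*, the αM chain of myeloid cells, had between 4 and 17 counts in a library.

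Among the β chains, *ITGB3* was called lower, and *ITGB1* had the highest level per exon kb. *ITGB3* (ENSG00000259207, GRCh37 chr17:45331193-45391109), which encodes the β3 chain of the vitronectin receptor αVβ3, was 14.0 and 13.9 CPM with miControl and 4.07 and 5.53 CPM with miR-6133-5p. It fell in both miR-6133-5p libraries, with a log2 fold change of -1.53 (95% interval -1.87 to -1.19, adjusted p = 9.71e-06, edgeR quasi-likelihood test). A second annotated gene on the same strand covers 33.2% of the exon bases of *ITGB3* and had no count in any library, so the level of *ITGB3* is uncertain where the counting drops shared reads. *ITGB1*, the β1 chain that pairs with 12 of the α chains, was 1942 and 2076 CPM with miControl and 1385 and 1415 CPM with miR-6133-5p. The groups did not overlap, and the log2 fold change was -0.52 (adjusted p = 0.00143, edgeR quasi-likelihood test), short of the fold threshold.

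The other β chains did not pass the test. *ITGB5*, the β5 chain of another vitronectin receptor, was 71.6, 68.4, 64.8 and 61.2 CPM, a log2 fold change of -0.15 that turned to 0.01 with library totals alone. *ITGB6*, an epithelial chain whose αVβ6 receptor activates TGF-β, was 1.87 and 1.98 CPM against 0.642 and 1.15 CPM, with a log2 fold change of -1.08 and an adjusted p of 0.0180 (edgeR quasi-likelihood test). *ITGB8*, the β chain of another TGF-β-activating receptor, overlapped between the groups at 3.99, 3.60, 2.78 and 3.74 CPM. *ITGB4*, the β4 chain of hemidesmosomes, was 2.03 and 2.13 CPM against 2.58 and 2.83 CPM, with a log2 fold change of 0.38. *ITGB2* and *ITGB7*, the leukocyte chains, stayed at or below 1.04 CPM, and *ITGB7* and its ratios are uncertain, since it shares 42.3% of its exon bases with *ZNF740* on the other strand.

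**Figure D2:**
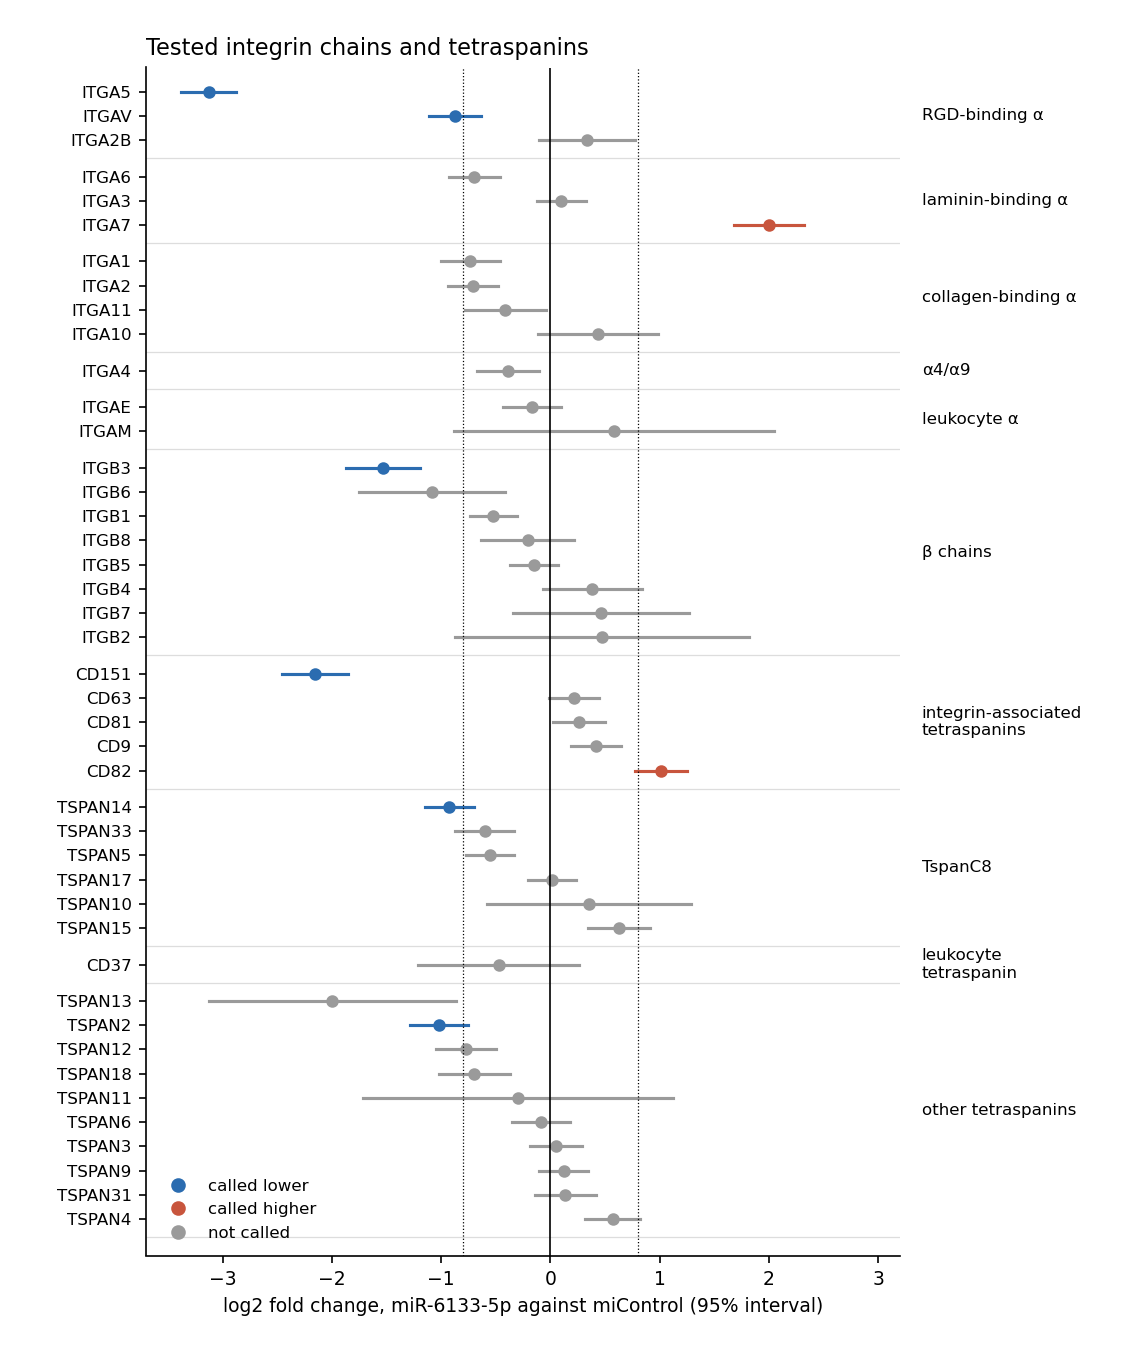
Log2 fold change of the 43 tested members, miR-6133-5p against miControl, grouped by ligand class or tetraspanin group. Points are edgeR estimates, bars 95% intervals, dotted lines the fold threshold of 0.8 in either direction, and colour the call. *ITGA5* at -3.13 and *ITGA7* at 2.00 mark the ends of the range, and the widest bars belong to members with few counts such as *ITGAM*.

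The make-up of the α chain mRNA differed between the groups. Each gene's counts were divided by the summed length of its exons, so that shares compare levels per kb, and each library was taken on its own, so that the scaling between libraries cancels. *ITGA5* made up 55.2% and 52.0% of the summed α chain level in the miControl libraries and 14.3% and 14.4% in the miR-6133-5p libraries. *ITGA3* made up 16.0% and 15.4% with miControl and 39.1% and 39.7% with miR-6133-5p. *ITGA6* went from 12.6% and 14.8% to 20.0% and 19.4% of the same sum, and *ITGAV* from a mean of 8.08% to one of 10.3%. The first place in the sum was therefore held by *ITGA5* in both miControl libraries and by *ITGA3* in both miR-6133-5p libraries, although the CPM of *ITGA3* overlapped between the groups.

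By ligand class, the RGD-binding chains summed to 61.9 ± 1.66% of the α chain level per kb with miControl and to 25.1 ± 0.452% with miR-6133-5p (SD, n = 2). The laminin-binding chains *ITGA3*, *ITGA6* and *ITGA7* summed to 29.6 ± 1.15% and 61.4 ± 0.0872%, and *ITGA7* within them to 0.247 ± 0.0367% and 2.31 ± 0.0866%. The collagen-binding chains summed to 6.36 ± 0.446% and 9.25 ± 0.110%. Shares have to sum to 100%, so a lower share of *ITGA5* raises the shares of the others. With the length of the canonical transcript or with no length scaling, *ITGA5* still held the first place in the miControl group, at 53.6% and 45.3%, and *ITGA3* in the miR-6133-5p group, at 44.4% and 40.2%.

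**Figure D3:**
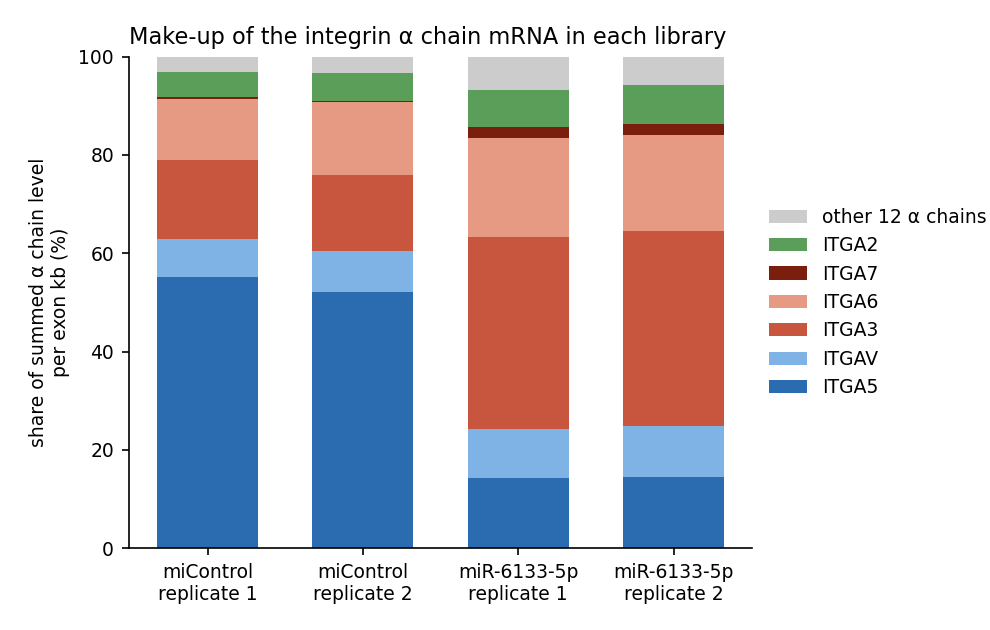
Share of each integrin α chain in the summed α chain level per exon kb, in percent, for each of the 4 libraries. Blues are RGD-binding, reds laminin-binding, green the collagen-binding *ITGA2* and grey the other 12 chains. *ITGA5* takes 55.2% and 52.0% of the miControl bars and 14.3% and 14.4% of the miR-6133-5p bars.

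For heterodimers, the α chain was set over its β partner per kb within each library. Of 24 known pairs, 19 had both chains tested, of which 10 share *ITGB1* and 5 share *ITGAV*, so the pairs are not independent of each other. These ratios describe mRNA, and their position depends on the exon length used for each gene, whereas the difference between groups does not for a single pair. *ITGA5* over *ITGB1* had a log2 ratio of 0.07 and -0.17 in the miControl libraries and of -2.71 and -2.60 in the miR-6133-5p libraries, so that the means differed by -2.61. *ITGA7* over *ITGB1* went the other way, from -7.59 and -8.04 to -5.37 and -5.20, a difference of 2.53. *ITGA3* over *ITGB1* was -1.71 and -1.92 with miControl and -1.25 and -1.14 with miR-6133-5p, so that *ITGA3*, with a level that did not pass the test, stood 0.62 higher against its partner on the log2 scale. *ITGA1*, *ITGA2* and *ITGA6* moved close to *ITGB1* itself, with differences in the log2 ratio of -0.21, -0.19 and -0.17.

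The 12 partners of *ITGB1* were also summed per kb. Their sum over *ITGB1* was 1.87 and 1.68 in the miControl libraries and 1.03 and 1.11 in the miR-6133-5p libraries. Without *ITGA5*, the sum of the other 11 over *ITGB1* was 0.818 and 0.792 with miControl and 0.874 and 0.943 with miR-6133-5p, and so moved slightly in the opposite direction. With canonical transcript lengths, the sum of the 12 over *ITGB1* was 0.793 ± 0.0616 and 0.488 ± 0.0277 (SD, n = 2).

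Among all 19 pairs, *ITGAV* with *ITGB3* was the 1 in which both chains were called lower. *ITGB3* lay further below its miControl level than *ITGAV*, and the log2 ratio of *ITGAV* over *ITGB3* went from 3.24 and 3.35 to 4.10 and 3.86. *ITGAV* over *ITGB5* went the other way, from 0.82 and 0.98 to 0.04 and 0.32. *ITGB5* over *ITGB3*, the 2 vitronectin partners of *ITGAV*, had a log2 ratio of 2.42 and 2.37 with miControl and of 4.06 and 3.54 with miR-6133-5p. *ITGAV* over *ITGB6* overlapped between the groups, at 5.91, 5.92, 6.53 and 5.88. *ITGA2B* over *ITGB3*, the platelet fibrinogen receptor, went from -2.36 and -2.27 to -0.29 and -0.56, with 112 to 310 counts of *ITGA2B* in a library. *ITGA6* over *ITGB4* went from 6.72 and 6.84 to 5.74 and 5.69, with *ITGB4* at 100 to 281 counts.

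**Figure D4:**
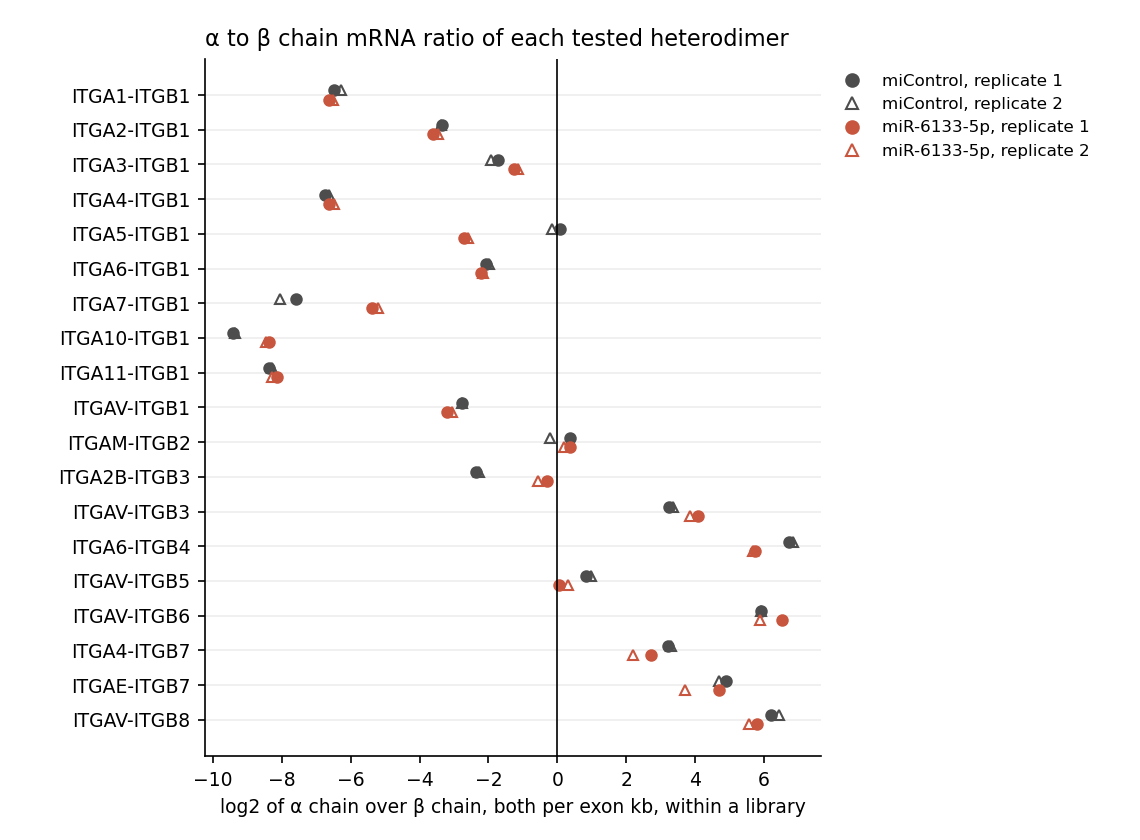
Log2 ratio of α over β chain mRNA, both per exon kb, in each library for the 19 heterodimers with both chains tested. Filled circles are replicate 1 and open triangles replicate 2, and the vertical line marks equal levels per kb. *ITGA5*-*ITGB1* moved left by 2.61 and *ITGA7*-*ITGB1* moved right by 2.53 on the log2 scale, while *ITGA11*-*ITGB1*, *ITGAM*-*ITGB2*, *ITGAV*-*ITGB6* and *ITGAE*-*ITGB7* overlap.

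Among the 5 integrin-associated tetraspanins, 1 was called lower (5.54% of all genes tested) and 1 higher (2.9% of all genes tested). *CD151* (ENSG00000177697, GRCh37 chr11:832887-839831), the tetraspanin that binds α3β1 and α6 integrins directly, was 119 and 101 CPM with miControl and 28.2 and 21.4 CPM with miR-6133-5p. It fell in both libraries, to a group mean of 24.8 ± 4.81 CPM from 110.3 ± 12.5 CPM (SD, n = 2), a log2 fold change of -2.16 (95% interval -2.46 to -1.86, adjusted p = 2.3e-07, edgeR quasi-likelihood test). *CD82* (ENSG00000085117, GRCh37 chr11:44585977-44641908), known as a suppressor of metastasis that restrains integrin signalling, was 16.3 and 15.3 CPM against 32.1 and 31.7 CPM. It rose by a log2 fold change of 1.01 (95% interval 0.78 to 1.25, adjusted p = 1.69e-05, edgeR quasi-likelihood test), a call that glmTreat did not make. *CD9*, which gathers integrins and growth factor precursors, was 67.8 and 65.1 CPM against 94.4 and 83.1 CPM, a log2 fold change of 0.42 (adjusted p = 0.00927, edgeR quasi-likelihood test) that was short of the fold threshold. *CD63*, a tetraspanin of late endosomes and exosomes, and *CD81*, a partner of immunoglobulin-like proteins, did not pass the test, with log2 fold changes of 0.22 and 0.26.

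The ratios within this group restate the fold changes of their genes in each library. The log2 ratio of *CD82* over *CD151* per kb was -2.92 and -2.78 in the miControl libraries and 0.14 and 0.52 in the miR-6133-5p libraries, and that of *CD9* over *CD151* went from -1.40 and -1.22 to 1.16 and 1.38. The differences between the groups were 3.18 for *CD82* and 2.58 for *CD9*, and the libraries of the groups did not overlap. Where these ratios sit depends on the length used, and with canonical transcripts *CD82* over *CD151* went from -3.39 and -3.25 to -0.33 and 0.05. *CD151* over the sum of its laminin-binding partners *ITGA3*, *ITGA6* and *ITGA7* per kb was 0.418 and 0.350 with miControl and 0.116 and 0.0802 with miR-6133-5p. *CD151* mRNA was thus lower also against the summed mRNA of these α chains. *CD151* shares 6.6% of its exon bases with *POLR2L* and *CD82* 6.93% with *CD82-AS1*, both on the other strand.

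The 6 tetraspanins of the TspanC8 group escort the protease ADAM10 to the cell surface, and all were tested. *TSPAN14* was 175 and 171 CPM with miControl and 87.6 and 94.9 CPM with miR-6133-5p. It was called lower, with a log2 fold change of -0.93 (95% interval -1.15 to -0.70, adjusted p = 2.02e-05, edgeR quasi-likelihood test), and lost the call at -0.76 with library totals alone and with glmTreat. *TSPAN5* was 149 and 153 CPM against 107 and 99.0 CPM and *TSPAN33* was 12.4 and 13.3 CPM against 8.50 and 8.49 CPM. Their log2 fold changes of -0.55 and -0.60 passed the p-value and not the fold threshold. *TSPAN15* lay on the other side, at 12.3 and 10.3 CPM against 18.5 and 16.4 CPM, a log2 fold change of 0.62 (adjusted p = 0.00289, edgeR quasi-likelihood test). *TSPAN17*, at 82.3, 75.3, 82.2 and 76.9 CPM, and *TSPAN10*, at or below 0.746 CPM, overlapped between the groups. Within the group, the log2 ratio of *TSPAN14* over *TSPAN15* per kb went from 1.08 and 1.30 to -0.50 and -0.22. With canonical transcript lengths it went from 2.13 and 2.34 to 0.54 and 0.82, with the same difference of -1.55. *ADAM10* itself was 213 and 265 CPM with miControl and 192 and 196 CPM with miR-6133-5p, and its log2 fold change of -0.30 did not pass the test.

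Of the 15 other tetraspanins, 10 were tested and 1 was called lower, against 5.54% of all genes tested. *TSPAN2*, a tetraspanin first known from oligodendrocytes, was 25.4 and 27.8 CPM with miControl and 14.2 and 12.1 CPM with the mimic. Its log2 fold change was -1.02 (95% interval -1.29 to -0.76, adjusted p = 3.9e-05, edgeR quasi-likelihood test), and glmTreat did not call it. *TSPAN12*, a co-receptor in Norrin signalling, was 12.6 and 13.2 CPM against 7.85 and 7.25 CPM, a log2 fold change of -0.77 just short of the threshold. This value reached -0.85 without replicate 1 of miR-6133-5p and -0.82 without replicate 1 of miControl. *TSPAN18* had a log2 fold change of -0.70 and *TSPAN4*, a tetraspanin of migrasomes, one of 0.57, both past the p-value alone. *TSPAN13* was 0.529 and 0.532 CPM against 0.107 and 0.151 CPM, which is 26 and 29 counts against 7 and 15, and its adjusted p of 0.0110 (edgeR quasi-likelihood test) missed 0.01. *TSPAN3* overlapped between the groups, with a log2 fold change of 0.05. *TSPAN6*, *TSPAN9*, *TSPAN11* and *TSPAN31* did not pass the test, and *TSPAN31* shares 29.7% of its exon bases with *CDK4* and *AGAP2* on the other strand. *CD37*, the leukocyte tetraspanin that was tested, was 1.26, 1.52, 0.673 and 1.30 CPM.

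The positions of the members, which the choice by symbol did not use, placed several beside each other. Within 200 kb, 7 pairs of members were neighbours on the same strand, and 4 of these had both genes tested. *CD151* and *TSPAN4* lie 2.98 kb apart on chromosome 11 and had log2 fold changes of -2.16 and 0.57. *CD82* and *TSPAN18* lie 106.1 kb apart on the same chromosome and had 1.01 and -0.70. *ITGA7* and *CD63* lie 8.92 kb apart on chromosome 12 and had 2.00 and 0.22. *ITGA1* and *ITGA2*, both collagen receptors, lie 30.1 kb apart on chromosome 5 and had -0.73 and -0.71. Of the 4 pairs, *ITGA1* and *ITGA2* were alike in direction and size, *ITGA7* and *CD63* shared a sign, and the other pairs were opposite in sign.

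The ligands that these integrins bind were taken from a list of 29 genes, 27 of them tested. Of these, 9 were called lower (5.54% of all genes tested) and 1 higher (2.9% of all genes tested), with a median log2 fold change of -0.48. *FN1*, the gene of fibronectin and thus of the α5β1 ligand, was 24870 and 24500 CPM with miControl and 10240 and 13270 CPM with the mimic, and had a log2 fold change of -1.07. *CTGF*, a matricellular ligand of αV integrins, had a log2 fold change of -2.31, *COL1A1* and *COL1A2*, the chains of type I collagen, had -1.46 and -1.11, and *TNC*, the gene of tenascin-C, had -0.92. The laminin chains went both ways, with *LAMC1* called lower at -1.54 and *LAMA5* called higher at 1.32. *LAMA5* was 16.8 and 18.6 CPM with miControl and 34.7 and 53.8 CPM with miR-6133-5p, so its libraries with the mimic were far apart, and it was not called without replicate 1 of miControl. *THBS1* and *EDIL3* were also called lower, at -0.86 and -0.91. With library totals alone, *TNC* (-0.76), *THBS1* (-0.70) and *EDIL3* (-0.745) lost their calls. Without replicate 1 of miR-6133-5p, *TNC* (-0.78) and *THBS1* (-0.78) fell short of the fold threshold. *TNC* was at -0.90 without replicate 1 of miControl and was not called there. With glmTreat, *FN1*, *TNC*, *THBS1*, *EDIL3*, *COL1A2* and *LAMA5* lost their calls.

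The list of activators and adaptors, proteins that act on integrins inside the cell, held 20 genes, of which 19 were tested. Of these, 3 were called lower by edgeR, against 5.54% of all genes tested, and none higher, against 2.9%, with a median log2 fold change of -0.35. *FERMT1*, an integrin-activating kindlin, was 56.8 and 55.6 CPM against 18.9 and 21.9 CPM, a log2 fold change of -1.46. *VCL*, the gene of vinculin, had a log2 fold change of -1.06 and *PARVA*, the gene of α-parvin, one of -0.82, which was -0.66 and not called with library totals alone. Neither *VCL* nor *PARVA* was called by glmTreat. A second kindlin gene, *FERMT2*, was 695 and 736 CPM with miControl and 528 and 486 CPM with the mimic. Its log2 fold change of -0.50 was past the p-value and short of the fold threshold. The remaining kindlin gene, *FERMT3*, was 3.54 and 2.77 CPM against 4.79 and 4.50 CPM. It went the other way, with a log2 fold change of 0.56 that did not pass the test. *FLNA*, the most abundant of the list, was 5302 and 4794 CPM with miControl and 3740 and 5150 CPM with the mimic. Its groups overlapped, and its log2 fold change of -0.18 did not pass the test.

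The list of tetraspanin partners held 10 genes, 9 tested, with 3 called lower, against 5.54% of all genes tested, and a median log2 fold change of -0.57. *HBEGF*, a growth factor precursor that binds CD9, was 130.5 and 131 CPM with miControl and 57.4 and 54.9 CPM with the mimic, and had a log2 fold change of -1.22. *MMP14*, a membrane protease that binds tetraspanins, had a log2 fold change of -1.17, and *CLDN1*, a tight junction protein that binds CD9 and CD81, one of -1.84 at 16 to 47 counts in a library. *CLDN1* was not called with either miControl library left out, and glmTreat called neither *CLDN1* nor *MMP14*. *CD44*, the most abundant of the list, was 1003 and 1016 CPM with miControl and 704 and 657 CPM with the mimic. Its log2 fold change of -0.57 was past the p-value and short of the fold threshold.

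The 2 families differed in how their replicates stood to each other. Among members with a mean of at least 5 CPM, 16 of 18 tetraspanins were higher in replicate 1 than in replicate 2 of miR-6133-5p, with a median log2 difference of 0.12, and 2 of 12 integrin chains were, with a median of -0.15. The tetraspanins had a median exon length of 5.23 kb and the integrin chains one of 8.49 kb. Over all tested genes at that level, the same median was 0.22 for genes under 2 kb, 0.14 from 2 to 4 kb, 0.02 from 4 to 8 kb and -0.11 for genes of 8 kb and over. The tetraspanins thus lay above genes of 4 to 8 kb, of which 2403 of 4356 were higher in replicate 1. The integrin chains lay slightly below genes of 8 kb and over, of which 867 of 3029 were higher in replicate 1. Between the miControl replicates, 12 of the 18 tetraspanins (median 0.04) and 6 of the 12 integrin chains (median -0.02) were higher in replicate 1. Over all tested genes at that level, the miControl median ran in the same direction, from 0.07 under 2 kb to -0.035 at 8 kb and over. The median log2 fold change between the groups was 0.11 for genes under 2 kb and -0.05 for genes of 8 kb and over, whereas it was 0.03 for these tetraspanins and -0.61 for these integrin chains. The part of gene length in the members' fold changes was not tested. *CD151*, *TSPAN2* and *TSPAN5* were higher in replicate 1 of miR-6133-5p, like most tetraspanins, and *ITGAV*, *ITGB3* and *ITGA7* were higher in replicate 2.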

How the data were processed

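The authors sequenced poly(A) RNA of LX-2 cells as paired reads, aligned them to GRCh37 with STAR 2.5.3a through GeneData Profiler, and deposited whole-number counts for each Ensembl gene and library without normalization. The submitters' processing notes also name featureCounts and Subread 1.6.4. The annotation release, strand setting and any filter are not given in the sources used here. Per the file headers, a mapping summary holds numbers of input reads and of uniquely mapped reads, which were taken here as read pairs. The gene counts came to between 1.68 and 1.70 per uniquely mapped pair, so on that reading mates were counted separately. The table and each library's own file differed in 0 genes.

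Of the gene identifiers, 87.4% had a symbol. Gene types, exon lengths and GRCh37 positions came from GENCODE v44 lifted to GRCh37, and the counting may have used another release. Genes were filtered with filterByExpr (minimum count 10), scaled with TMM (factors 0.948, 0.941, 1.06 and 1.06) and modelled by the glmQLFit function of edgeR 4.0.16 (limma 3.58.1, R 4.3.3). Intervals at 95% were derived from the F statistic. Groups of 2 libraries allow no exact permutation test below p = 0.333, and none was made. The procedure was tested on simulated data. Alternatives used DESeq2 1.42.0, other scalings and filters, a replicate block, glmTreat, an adjusted p-value of 0.05 and each library left out. Tables and plots were made in Python 3.11.15 with pandas 2.3.3, numpy 2.4.6 and matplotlib 3.10.9.

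The members and the lists were chosen with earlier results of these data known. Genes named were the called members, the chains of heterodimers with both chains tested, the most abundant member of each list, members without enough counts, and up to 8 called genes with the largest change in each list of other genes. The remaining members named were mainly tetraspanins short of the fold threshold. They, *FERMT2*, *FERMT3*, *ADAM10*, *THBS1*, *EDIL3*, the other markers and the positions were chosen after their values were seen.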

Additional observations from a re-analysis of the deposited data

How the results depend on the processing

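Under RLE scaling, DESeq2 and a minimum of 10 counts in every library, the same 6 members were called lower and the same 2 higher. With library totals alone, *ITGAV* and *TSPAN14* lost their calls, and over all genes 709 were called lower and 977 higher, against 1011 and 529 with TMM. With glmTreat, which tests against the fold threshold itself, 3 members were called lower (*ITGA5*, *ITGB3* and *CD151*) and 1 higher (*ITGA7*), with 1 tetraspanin called lower and 0 higher, and 326 and 80 of all genes. At an adjusted p-value of 0.05 with no fold threshold (edgeR), 17 members were lower and 5 higher, 9 integrin chains were lower, 8 tetraspanins were lower and 4 higher, and 2937 and 2574 of all genes were. With no filter, and with the replicate block, 8 members were called lower and 2 higher, *ITGB6* and *TSPAN13* being added. The deviations of same-numbered libraries correlated at 0.049 across genes, which cannot tell whether these libraries shared a culture or a batch. Over all genes, the replicate block called 1130 lower and 642 higher, and it changed no other member's call.

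With each library left out in turn, between 2 and 6 integrin chains were called lower and between 293 and 587 of all genes higher. The lone library of a group was then assumed to vary like the others. The smallest counts came without replicate 1 of miR-6133-5p and of miControl respectively, and the 6 chains without replicate 2 of miR-6133-5p, which added *ITGA1*, *ITGA2* and *ITGB6*. Of 469 recomputed log2 fold changes of members, 444 kept their sign and call, 7 lost the call, 9 gained it and 9 changed sign. With library totals alone, the sign changed for *ITGB5* (0.0117) and *TSPAN6* (0.0747). With a library left out, log2 fold changes crossed 0 for *ITGAM* (-0.0115 to 1.45), *TSPAN10* (-0.12 to 1.04), *TSPAN17* (-0.0776 to 0.0689), *TSPAN11* (-2.12 to 0.38), *TSPAN3* (-0.0814 to 0.14) and *TSPAN6* (-0.26 to 0.041), none of which passed the test. The cause was not tested.

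With canonical transcript lengths, shares of the α chain level in the miControl and miR-6133-5p groups were 53.6% and 14.0% for *ITGA5*, 12.8% and 15.9% for *ITGAV*, 18.1% and 44.4% for *ITGA3*, 9.03% and 12.7% for *ITGA6* and 0.312% and 2.86% for *ITGA7*. With no length scaling they were 45.3% and 11%, 17.9% and 20.7%, 17.6% and 40.2%, 10.4% and 13.7%, and 0.256% and 2.18%. Summing tested α chains alone, an alternative added after seeing the data, moved none of these by more than the spread between replicates. Canonical lengths, also added then for ratios, put the log2 ratio of *ITGA5* over *ITGB1* at -1.21 and -3.82 and that of the 12 summed partners at -0.34 and -1.04, with the differences between groups moved by less than the spread. Matches of the mature microRNA's seed were not run. Low counts limit *ITGAM*, *ITGB2*, *TSPAN10*, *TSPAN11* and *TSPAN13* most.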
